A study of Mus musculus with 7 samples.

Results

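Among the genes that neighbor Tbx5-dependent noncoding RNAs (ncRNAs) of the mouse left atrium, 89 carry a symbol beginning with Zfp, Zscan or Zkscan, the prefixes under which mouse zinc finger genes are named. They were chosen by symbol from the neighboring gene and linked gene entries of the authors' list of ncRNA loci, which was itself selected on the authors' differential expression calls. The 89 genes (81 Zfp, 5 Zscan and 3 Zkscan) are part of 3959 neighbor symbols in all, and 68 of the 1489 loci name at least 1 of them. TBX5 is a T-box transcription factor of the atrium. The libraries behind the list came from left atria of adult male mice, 6 to 8 weeks old and of mixed strain, with 3 control and 4 Tbx5 knockout libraries. According to the study's methods all the mice carried R26CreERt2, whose Cre is expressed from a promoter active in all tissues and works once tamoxifen is given, and only the knockouts also carried the floxed Tbx5fl/fl alleles. RNA was depleted of ribosomal and polyadenylated RNA and sequenced by strand.

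The files analysed here give positions and not levels. No read count, fold change or p-value per library was analysed, so sequencing depth and animal-to-animal spread are unknown for these loci, the tissue could not be checked against its markers, and no locus or gene was assigned a rise or a fall after Tbx5 loss. A gene is called linked where it appears in a further column of the list, whose header names genes called changed in the left atrium and lying near the locus. The study called its changed coding genes on a separate sequencing of polyadenylated RNA, which was not analysed here. Ranges after a share are 95% Wilson intervals, and ranges after a median are 95% order-statistic intervals. Both describe counting error alone, and genes of 1 array share their loci. No comparison was tested, because the links are part of the rule that chose the genes.

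Most mouse genes with these prefixes encode C2H2 zinc finger proteins, in which each finger folds around a zinc ion and reads a short stretch of DNA, and in which fingers are strung together in tandem. Many of them also carry a KRAB domain, which recruits the corepressor TRIM28 and, through it, enzymes that deposit repressive chromatin marks, largely on transposable elements. SCAN domains, which give Zscan and Zkscan genes their names, join such proteins in pairs. The genes multiplied by tandem duplication and sit in arrays of related copies. The prefix does not describe a single function, since it also covers RNA-binding proteins of the Zfp36 family and cofactors such as Zfpm2.

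Promoters of linked genes are shown first because the linked genes at 1 locus have separate promoters within a common neighborhood. RefSeq promoter windows (GRCm38.p6, 250 bases before to 50 bases after a start site) were found for 68 of the 89 genes and 20 of the 25 linked genes. In 56 of the 68 windows the first 30 transcribed bases occurred in a GENCODE transcript of the gene, and the other windows were kept. Capitals mark CCAATCA, a form of the CCAAT box to which NF-Y binds, and GCCGCCAT, which contains the core of the YY1 site. Both motifs were sought on both strands and were picked after these sequences had been read. The first pair lies on either side of locus XLOC_024410 on chromosome 17.
Zfp799, chr17:32830212-32830511, minus strand: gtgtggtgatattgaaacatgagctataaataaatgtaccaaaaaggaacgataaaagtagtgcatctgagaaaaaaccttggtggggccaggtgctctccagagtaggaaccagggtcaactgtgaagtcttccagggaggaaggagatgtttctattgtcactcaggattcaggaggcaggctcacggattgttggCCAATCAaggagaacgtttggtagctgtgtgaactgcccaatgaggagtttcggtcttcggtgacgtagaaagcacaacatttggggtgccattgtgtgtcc
Zfp472, chr17:32965581-32965880, plus strand: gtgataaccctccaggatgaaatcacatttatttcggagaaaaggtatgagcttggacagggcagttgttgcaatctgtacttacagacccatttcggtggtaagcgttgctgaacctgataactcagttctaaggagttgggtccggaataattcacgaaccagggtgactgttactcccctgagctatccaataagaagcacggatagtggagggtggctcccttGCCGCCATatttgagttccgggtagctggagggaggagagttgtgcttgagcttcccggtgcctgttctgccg
The next set belongs to the linked genes around locus XLOC_055190 on chromosome 8.
Zfp964, chr8:69654306-69654605, plus strand: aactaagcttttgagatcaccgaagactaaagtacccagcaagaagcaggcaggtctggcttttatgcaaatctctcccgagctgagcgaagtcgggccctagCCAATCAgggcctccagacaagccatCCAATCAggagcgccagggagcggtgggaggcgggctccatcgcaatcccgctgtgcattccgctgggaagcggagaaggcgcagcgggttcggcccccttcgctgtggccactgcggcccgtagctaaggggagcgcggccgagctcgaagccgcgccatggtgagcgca
Zfp869, chr8:69716853-69717152, minus strand: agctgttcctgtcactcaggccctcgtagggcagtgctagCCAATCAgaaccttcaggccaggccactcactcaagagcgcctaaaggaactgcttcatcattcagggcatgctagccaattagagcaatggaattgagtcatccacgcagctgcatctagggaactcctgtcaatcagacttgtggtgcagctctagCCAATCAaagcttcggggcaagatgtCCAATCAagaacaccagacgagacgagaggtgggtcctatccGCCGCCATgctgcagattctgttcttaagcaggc
Zfp866, chr8:69774862-69775161, minus strand: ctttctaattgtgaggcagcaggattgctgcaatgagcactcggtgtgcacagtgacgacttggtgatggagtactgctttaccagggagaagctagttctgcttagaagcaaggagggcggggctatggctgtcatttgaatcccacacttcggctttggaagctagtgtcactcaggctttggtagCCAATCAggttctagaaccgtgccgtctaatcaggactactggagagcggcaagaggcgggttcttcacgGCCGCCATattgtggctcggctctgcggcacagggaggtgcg
The last pair comes from 1 array on chromosome 13 and has the most similar promoters of any pair within an array.
Zfp808, chr13:62129640-62129939, plus strand: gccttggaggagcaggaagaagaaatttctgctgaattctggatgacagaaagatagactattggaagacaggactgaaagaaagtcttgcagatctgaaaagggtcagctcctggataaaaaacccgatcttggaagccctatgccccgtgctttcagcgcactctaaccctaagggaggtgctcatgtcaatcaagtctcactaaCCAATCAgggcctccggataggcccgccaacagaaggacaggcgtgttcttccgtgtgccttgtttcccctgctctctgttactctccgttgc
Zfp935, chr13:62466763-62467062, minus strand: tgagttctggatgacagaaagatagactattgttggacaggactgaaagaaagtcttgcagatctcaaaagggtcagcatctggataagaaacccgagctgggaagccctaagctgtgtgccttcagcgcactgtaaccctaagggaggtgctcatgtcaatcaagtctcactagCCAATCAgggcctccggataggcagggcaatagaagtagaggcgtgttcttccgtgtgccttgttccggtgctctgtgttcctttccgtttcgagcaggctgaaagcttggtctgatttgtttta

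Of these 7 windows, 6 hold CCAATCA, with 3 copies before Zfp869 and 2 before Zfp964, and 3 hold GCCGCCAT, those of Zfp472, Zfp866 and Zfp869. Over the linked genes, CCAATCA stood in 8 of 20 promoters (40%, interval 21.9 to 61.3%). It stood in 4 of 48 promoters of zinc finger genes that were not linked (8.33%, 3.29 to 19.6%) and in 8.20% of the 27025 promoters of all genes. Those 4 include Zfp868 with 2 copies and Zfp963 with 1, the unlinked genes named by XLOC_055190. The others are Zfp951 and Zfp952. GCCGCCAT stood in 5 of 20 linked promoters (25%, 11.2 to 46.9%), in 3 of 48 not linked (6.25%, 2.15 to 16.8%) and in 2.38% of all. Split instead by the KRAB domain, CCAATCA stood in 11 of 36 promoters of genes with the KRAB core described further on (30.6%) and in 1 of 32 without it (3.12%). GCCGCCAT stood in 8 of 36 promoters with the core (22.2%) and in 0 of 32 without, an upper bound of 10.7%. The motifs were picked from linked promoters, so these shares describe the windows and support nothing. AGGTGTGA, a common form of the T-box half-site, was not in any of the 20 linked promoters (upper bound 16.1%) and was in 1.28% of all promoters, Zfp956 being the only zinc finger gene of the list with a match. Promoters within 1 array had a median identity of 51.1% over 87 pairs, against 49.7% over 693 pairs from different arrays, and Zfp808 with Zfp935 reached 71.8%.

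The linked column named 25 of the 89 zinc finger genes (28.1%, 19.8 to 38.2%), beside 286 of all 3959 neighbor symbols (7.22%). These links were part of the rule that chose the genes, and the share is a description. At the same 68 loci, the neighbors without such a symbol were linked in 20 of 269 cases (7.43%, 4.86 to 11.2%). Counted over loci, 38 of 68 had any linked gene (55.9%), beside 25.8% of all loci, and 27 had a linked zinc finger gene (39.7%, 28.9 to 51.6%). In 16 of those 27 loci every linked gene carried such a symbol. At XLOC_024058 and XLOC_016155 the other linked genes, Gm4944 and Gm5141, encode 17 and 15 fingers under other symbols. A locus with more neighbors has more chances of a link, and loci naming a zinc finger gene had a median of 6 neighbors against 3 over all loci. Among loci with 2 to 5 neighbors, 10 of 28 zinc finger genes were linked (35.7%) and 8.92% of other neighbors. Among loci with 6 or more, the numbers were 15 of 61 (24.6%) and 5.44%.

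The link belonged to the gene rather than to a locus. All 7 linked zinc finger genes named by several loci were linked at each of them, as were all 80 such genes of the whole list. Zfp184 was linked at 4 loci, Zfp644 at 3, and Zfp397, Zfp536, Zfp934, Zfp935 and Zscan12 at 2 each. A gene named by many loci therefore adds 1 call and not several. When zinc finger genes and loci that name each other were merged into 49 groups, 18 groups held a linked gene (36.7%, 24.7 to 50.7%).

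**Figure D1:**
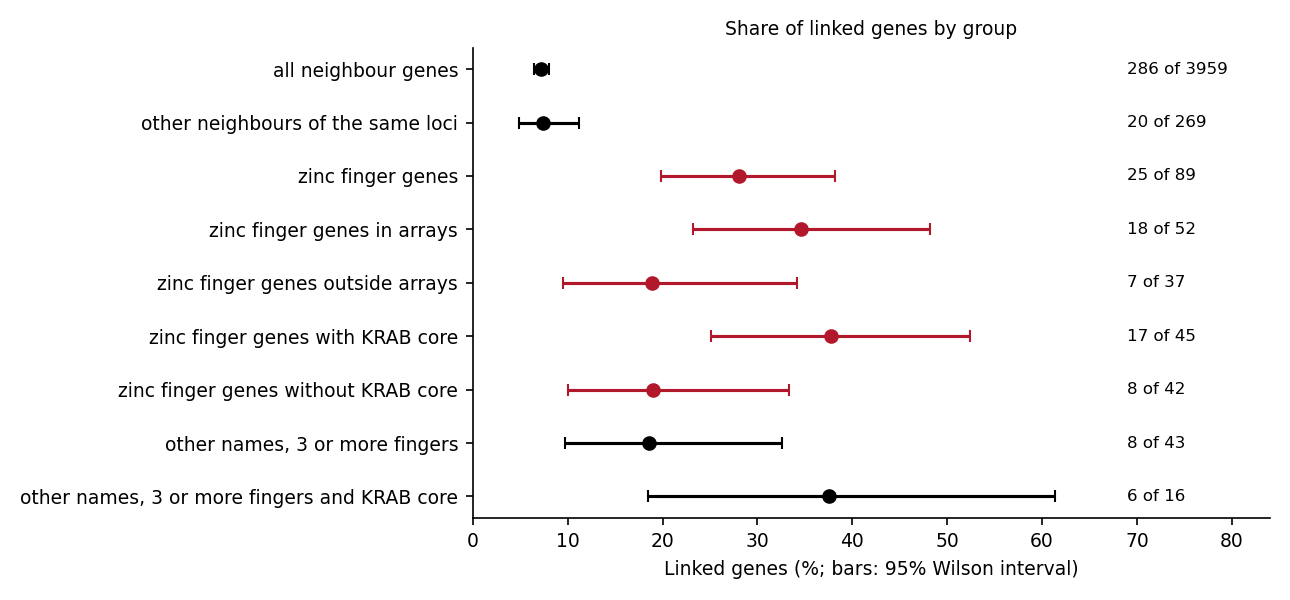
Share of linked genes (%) in each group of neighbor genes, with 95% Wilson intervals as bars and the counts at the right. Zinc finger genes stood at 28.1% and the other neighbors of the same loci at 7.43%, while the groups with and without the KRAB core overlapped in their intervals.

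Of the 89 genes, 52 lay in 11 arrays (58.4%, 48.0 to 68.1%). An array is 3 or more of these genes on 1 chromosome, each at most 500 kb from the next. Only listed genes count, so annotated genes outside the list are left out. Genes mostly lie within 200 kb of the locus that names them (94.9% of pairs). Those named by 1 locus therefore tend to fall in 1 array by construction. The share is a description, and no like share was set beside it for other genes. The arrays were reached by 24 of the 68 loci, and 8 arrays held a linked gene. Linked genes made up 18 of the 52 array genes (34.6%, 23.2 to 48.2%) and 7 of the 37 others (18.9%, 9.48 to 34.2%), with overlapping intervals. Consecutive listed genes of an array, passing over any unlisted genes between them, lay on the same strand in 20 of 41 cases (48.8%). The genes fell on 16 chromosomes, led by chromosome 7 with 15 genes and chromosome 17 with 14, and chromosomes 1, 16, 19 and X had none.

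**Figure D2:**
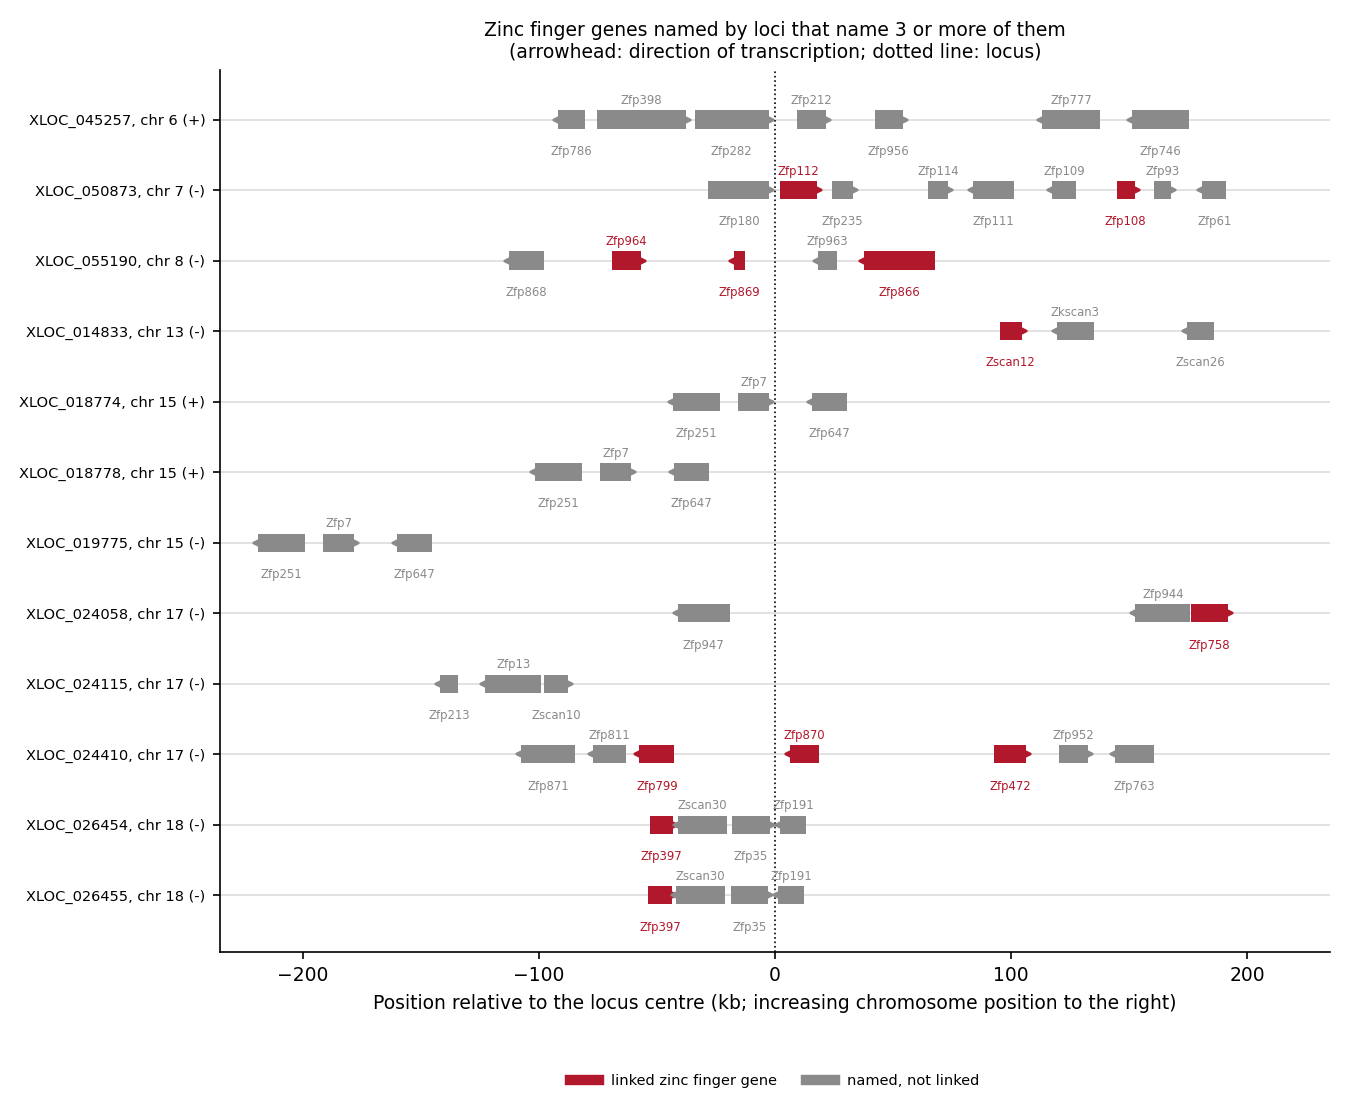
Gene bodies of the zinc finger genes named by the 12 loci that name 3 or more of them, drawn by distance from the locus centre (kb), with arrowheads for the direction of transcription. Linked genes (red) were interleaved with unlinked genes (gray) at several loci, and 7 of the 12 loci had a linked zinc finger gene.

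On chromosome 17 (chr17:32765496-33033402, GRCm38), a single 81 bp locus, XLOC_024410, named all 7 listed genes of the array. In the annotation that array has 13 genes with these prefixes (chr17:32765496-33631779). The linked genes of the locus were Zfp870 at 6.39 kb, Zfp799 at 42.5 kb and Zfp472 at 93.0 kb. Zfp811 at 62.8 kb, Zfp871 at 84.5 kb, Zfp952 at 120 kb and Zfp763 at 144 kb were named but not linked. Linked and unlinked genes were thus interleaved, and Zfp870, downstream of which the locus lay on the same strand, was its closest neighbor. Those 3 genes were the only linked entries of this locus.

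The array on chromosome 8 (chr8:69209038-69791178) had 4 linked genes of 6 listed, the most of any array. Locus XLOC_055190, 103 bp long, was linked to Zfp869 at 12.7 kb, Zfp866 at 37.8 kb and Zfp964 at 56.4 kb, and not to Zfp963 at 18.1 kb or Zfp868 at 97.8 kb. Cilp2, which encodes a cartilage matrix protein, was its remaining linked gene. The RefSeq promoter of Zfp869 shown above lies between the GENCODE body of that gene and the locus, so its distance depends on the annotation. Zfp930 was linked to a separate locus, XLOC_053394, 91.0 kb away.

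On chromosome 13 all 3 listed genes of an array (chr13:62129886-62571199) were linked. Zfp808 lay 172 kb from XLOC_015481. Zfp934 and Zfp935 overlapped the 192 bp locus XLOC_016151 and were linked also to XLOC_016155, 26.4 and 39.1 kb away. Neither of the last 2 loci has a strand in the list, so sense and antisense transcription of these genes could not be told apart. The remaining linked gene of XLOC_016155 was Gm5141. In the GENCODE annotation Zfp934 and Zfp935 overlap each other. The RefSeq start of Zfp935 used for its promoter, however, lies 22.3 kb from XLOC_016151 and 131 kb from XLOC_016155. For that gene, the overlap with the first locus and the distance to the second therefore depend on the annotation. Sequence shared between annotated genes also limits these entries. The shares that follow can count bases held by overlapping gene models, such as those of Zfp934 and Zfp935. They do not by themselves show copies. Of the windows of 47 bases, the read length left after trimming, in the longest coding transcript, 100% for Zfp935, 47.7% for Zfp934 and 49.5% for Zfp808 also occurred in a transcript of another annotated gene. Reads from such windows could belong to more than 1 gene, and whether that affected the links was not tested. Over 10% of windows were shared in 14 of 87 coding zinc finger genes (16.1%), beside 578 of 3831 coding neighbors (15.1%). By link, the counts were 5 of 25 linked genes (20%, 8.86 to 39.1%) and 9 of 62 others (14.5%, 7.83 to 25.3%).

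The other chromosome 13 array (chr13:21362820-21960779) lies among the histone genes of that chromosome. Zfp184 was named by 4 loci, at 25.6, 33.1, 60.1 and 89.7 kb, and was linked at all of them together with Hist1h4i, a histone H4 gene. Those loci had 16 to 29 neighbors each. Zscan12 was linked to XLOC_014833 at 95.1 kb and to XLOC_013408 at 192 kb, while Zkscan3, a repressor of autophagy genes, and Zscan26 were named at 119 and 174 kb without a link. Of the Zfp184 loci, XLOC_013440 had a conservation score of 0.91, the highest among the 58 scored loci that name a zinc finger gene.

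On chromosome 7 (chr7:24081924-24301232) the 51 bp locus XLOC_050873 named 9 genes, more than any other locus. Zfp112, 2.23 kb away, and Zfp108, 145 kb away, were linked. Zfp180, on the opposite side at 2.32 kb, was not, and neither were Zfp235 at 24.1 kb, Zfp114 at 65.0 kb, Zfp111 at 83.9 kb, Zfp109 at 117 kb, Zfp93 at 160 kb and Zfp61 at 181 kb. Distance therefore did not order the linked and unlinked genes of this array.

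A further 3 arrays had 1 or 2 linked genes each. On chromosome 5 (chr5:138085084-138619761) Zkscan1 was linked to XLOC_042852 at 157 kb and Zfp68 to XLOC_044409 at 132 kb, and Zscan21 at 188 kb was not linked. On chromosome 17 (chr17:22144359-22377281) Zfp758, 175 kb from XLOC_024058, was linked, and Zfp947 at 18.6 kb and Zfp944 at 152 kb were not. That locus had a second linked neighbor, Gm4944, 11.3 kb away, which the newer annotation calls Zfp994. On chromosome 18 (chr18:23954692-24020810) loci XLOC_026454 and XLOC_026455 lay between Zfp35 and Zfp191, the latter a regulator of myelination. Zfp191 was 2.02 and 1.31 kb away and Zfp35 2.16 and 2.96 kb away, yet the linked gene at both loci was Zfp397, at 42.9 and 43.7 kb, beyond the pseudogene Zscan30.

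The remaining 3 arrays had no linked zinc finger gene. On chromosome 6 (chr6:47819266-48086593) XLOC_045257, 115 bp long, named Zfp282 at 2.62 kb, Zfp212 at 9.26 kb, Zfp398 at 37.6 kb, Zfp956 at 42.2 kb, Zfp786 at 80.2 kb, Zfp777 at 113 kb and Zfp746, a repressor of the PGC-1alpha gene, at 151 kb. On chromosome 15 (chr15:76851609-76925448) Zfp7 and Zfp647 were each named by 4 loci and Zfp251 by 3, the closest being Zfp7 at 2.27 kb from XLOC_018774. On chromosome 17 (chr17:23556767-23611019) XLOC_024115 named Zscan10, a factor of pluripotent stem cells, at 86.6 kb, Zfp13 at 98.1 kb and Zfp213 at 133 kb, among 23 neighbors. In the chromosome 15 array, being named by several loci was thus not accompanied by a link.

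The rest of the linked genes stood outside arrays. Zfp644, a partner of the histone H3K9 methyltransferases G9a and GLP, was named by 3 loci of 107 to 212 bp, at 19.9, 25 and 27.6 kb downstream on the same strand. All of them overlap the annotated noncoding transcript Gm28039. Zfp536, a repressor in neuronal differentiation, was named by loci 172 and 177 kb upstream on the same strand. Zfp606 and Zfp551 were linked to 1 locus, XLOC_048559, at 13.3 and 86.8 kb. Zfp958 lay 77.6 kb from XLOC_052785, and Zfp612 lay 92.9 kb from XLOC_053931, where Tat was linked too. Zfp385b was linked to XLOC_032287, a 9267 bp locus in the lincRNA Gm13943, 93.5 kb away, together with Sestd1 and Ccdc141.

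Among genes with the prefix but another kind of protein, Zfpm2 (FOG2), the GATA4 cofactor required for heart development, lay 117 kb from XLOC_018481 and was not linked. Zfp36l2, which binds AU-rich mRNAs and promotes their decay, lay 229 and 278 kb from its loci and was not linked. Zfp516, an activator of brown fat thermogenesis, lay 4.62 kb upstream of a locus whose linked gene was Tshz1, itself a zinc finger gene, 1002 kb away.

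Over all 118 pairs of a locus and a zinc finger gene, the median distance was 84.2 kb (60.1 to 96.8 kb), beside 95.6 kb over all 6595 pairs of a locus and a matched neighbor. It was 56.4 kb (33.1 to 92.9 kb) over the 35 linked pairs and 86.6 kb (69.8 to 115 kb) over the 83 others, with overlapping intervals. Linked pairs of all genes had a median of 83.9 kb (74.2 to 93.5 kb, n = 464). Of the zinc finger pairs, 112 were within 200 kb (94.9%), beside 89.4% of all pairs, and the other 6 reached up to 924 kb. The zinc finger gene was the closest neighbor in 7 of 35 linked pairs (20%) and in 15 of the 83 others (18.1%). Over all genes the linked gene was closest in 144 of 464 linked pairs (31%). That share is not like for like, since all loci had a median of 3 neighbors and loci naming a zinc finger gene 6. The closest listed neighbor was a zinc finger gene at 21 of the 68 loci, and 18 had such a gene as the nearest coding gene of the annotation (26.5%).

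**Figure D3:**
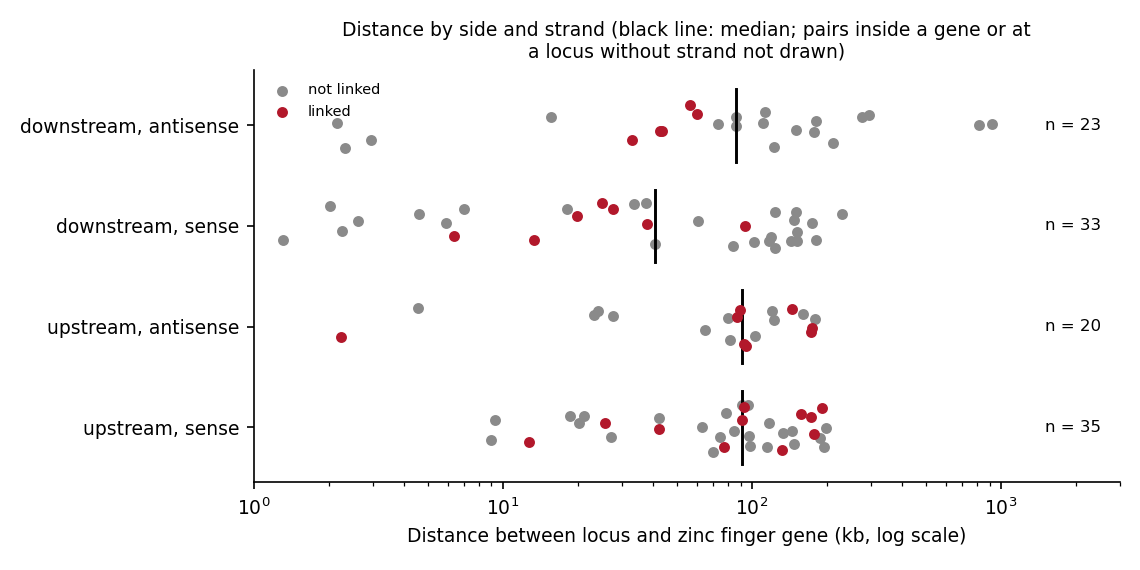
Distance in kb (log scale) between locus and zinc finger gene for the pairs with a strand, by side of the gene and by strand, with the median of each row as a black line. The row of loci downstream on the same strand held 33 pairs, among them 8 of the 11 pairs with a strand lying within 10 kb downstream.

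Within 10 kb there were 20 pairs. Loci downstream of the gene were on its strand in 8 of 11 cases (72.7%, 43.4 to 90.3%), beside 279 of 373 such pairs over all neighbors (74.8%, 70.2 to 78.9%). Upstream, 2 of 4 were on the same strand, and the 5 overlapping pairs comprised 3 on the same strand and 2 without a strand. The genes with the closest loci outside a gene body were Zfp191 at 1.31 kb, Zfp35 at 2.16 kb, Zfp112 at 2.23 kb, Zfp7 at 2.27 kb, Zfp180 at 2.32 kb and Zfp282 at 2.62 kb. Except for Zfp112, these genes had the locus downstream, and of the 6 only Zfp112 was linked. Loci inside a gene were named for Zfp125, Zfp697, Zfp934 and Zfp935. Zfp125, an annotated pseudogene, held XLOC_012344, at 13063 bp the longest of the 68 loci, and XLOC_012340, 296 bp, both on its own strand and in the pseudogene 3110053B16Rik. Transcription past the end of a gene and a separate ncRNA could not be told apart for loci close downstream.

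**Figure D4:**
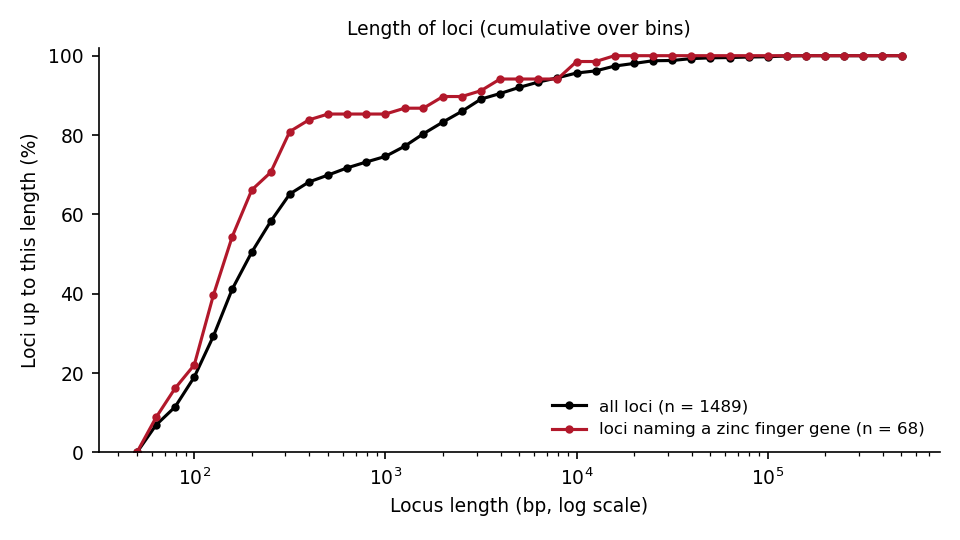
Cumulative share of loci (%) by length (bp, log scale) for all 1489 loci and for the 68 that name a zinc finger gene. The 68 loci had a median of 142 bp and all loci a median of 197 bp.

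Loci naming a zinc finger gene had a median length of 142 bp (122 to 189 bp), with a range of 51 to 13063 bp, beside 197 bp over all loci. Under 300 bp were 77.9% of them and 63.3% of all loci, and over 1000 bp were 14.7% and 25.4%. Loci with a linked zinc finger gene had a median of 168 bp (118 to 264 bp, n = 27) and the others of 135 bp (114 to 173 bp, n = 41). Bidirectional transcription was marked for 17 of the 68 (25%, 16.2 to 36.4%), beside 23.4% of all loci. The median conservation score was 0.0923 (0.0382 to 0.128, n = 58), beside 0.0759. The nearest coding start site was a median of 19.9 kb away, beside 49.8 kb over all loci. By strand, 28 loci were on the plus strand, 38 on the minus strand and 2 had none.

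Some loci lay in copies of other genes. Of the 68 loci, 6 lay wholly inside an exon of an annotated pseudogene on the same strand (8.82%, 4.11 to 17.9%), beside 62 of all 1489 (4.16%, 3.26 to 5.30%). Their sequences are shown because a read from a pseudogene can match its parent gene. Capitals mark runs of 20 or more bases that also occur in a transcript of the named gene, and the sequences, from GENCODE M21 transcripts on GRCm38, are those of the loci linked or closest to Zkscan1, Zfpm2, Zfp462 and Zfp317.
XLOC_042852, chr5:137928294-137928581, plus strand, runs shared with Zwint: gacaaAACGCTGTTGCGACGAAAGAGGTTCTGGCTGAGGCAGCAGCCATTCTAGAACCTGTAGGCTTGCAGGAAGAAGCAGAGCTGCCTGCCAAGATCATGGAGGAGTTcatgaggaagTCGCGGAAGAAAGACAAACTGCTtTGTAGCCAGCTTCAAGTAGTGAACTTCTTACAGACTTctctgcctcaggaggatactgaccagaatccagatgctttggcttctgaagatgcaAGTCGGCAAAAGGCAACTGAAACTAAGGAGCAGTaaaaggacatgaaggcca
XLOC_018481, chr15:40538017-40538166, plus strand, runs shared with Arpc1b: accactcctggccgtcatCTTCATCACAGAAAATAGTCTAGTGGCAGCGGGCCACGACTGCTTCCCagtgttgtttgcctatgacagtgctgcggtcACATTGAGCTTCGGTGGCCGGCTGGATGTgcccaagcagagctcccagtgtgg
XLOC_038137, chr4:54853888-54854049, plus strand, runs shared with Tpx2: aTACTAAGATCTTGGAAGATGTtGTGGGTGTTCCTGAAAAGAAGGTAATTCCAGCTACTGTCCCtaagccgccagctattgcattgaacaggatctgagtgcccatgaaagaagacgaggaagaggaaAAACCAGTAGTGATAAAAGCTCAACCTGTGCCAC
XLOC_056082, chr9:19690621-19690716, plus strand, runs shared with Bnip2: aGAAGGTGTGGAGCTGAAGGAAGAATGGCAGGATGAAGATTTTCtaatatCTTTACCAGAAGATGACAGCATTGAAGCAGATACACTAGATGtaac

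The capitals covered 198 of 288 bases in XLOC_042852, 77 of 150 in XLOC_018481, 96 of 162 in XLOC_038137 and 85 of 96 in XLOC_056082. Windows of 47 bases shared with another gene's transcript made up 24% of XLOC_042852, 1.92% of XLOC_018481 and none of the other 2 shown. The remaining loci wholly inside a pseudogene exon, XLOC_046015 and XLOC_024058, shared 29% and 24.7% of such windows, mostly with Lasp1 and Snx4. None of these parent genes is a zinc finger gene. XLOC_042852 and XLOC_024058 are the loci linked to Zkscan1 and Zfp758, and the part of misplaced reads in these loci was not tested. The list also names a pseudogene at XLOC_007436, XLOC_012340, XLOC_012344, XLOC_046016 and XLOC_051228. Those loci did not lie wholly inside a pseudogene exon on the same strand and are not counted here.

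The reference proteins were read for 2 features, C2H2 fingers and the KRAB core. Zinc finger genes are named under these prefixes, so the finger count is not independent of the choice by symbol. Fingers were counted by the pattern of cysteines and histidines in the longest coding transcript of GENCODE M21. The 87 coding genes had a median of 10 fingers (8 to 11), from 0 to 33. All 427 annotated coding genes with these prefixes also had a median of 10 (9 to 11), from 0 to 36. Linked genes had a median of 12 fingers (9 to 12, n = 25) and the others 9 (7 to 11, n = 62). Zfp462 had 33 fingers and was not linked, and Zfp808 had the most among linked genes, 22. The pattern found none in Zfp365, Zfp36l2, Zfp957 and Zfp935, of which Zfp36l2 has fingers of another kind and Zfp935 was read from the overlapping model described above.

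The core of the KRAB domain was sought as 9 residues with 6 fixed positions, of which 1 could differ, and it was present in 45 of 87 coding genes (51.7%, 41.4 to 61.9%), beside 49.9% of the annotated genes with these prefixes. It was present in 17 of 25 linked genes (68.0%, 48.4 to 82.8%) and 28 of 62 others (45.2%, 33.4 to 57.5%), and in 34 of 51 array genes (66.7%) and 11 of 36 outside arrays (30.6%). Read the other way, 17 of 45 genes with the core were linked (37.8%) and 8 of 42 without it (19%, 10 to 33.3%). Within arrays, 13 of 34 genes with the core (38.2%, 23.9 to 55%) and 5 of 17 without it (29.4%, 13.3 to 53.1%) were linked. Outside arrays the counts were 4 of 11 (36.4%, 15.2 to 64.6%) and 3 of 25 (12%, 4.17 to 30%), and all these intervals overlap. Neighbours with another symbol but 3 or more fingers were linked in 8 of 43 cases (18.6%, 9.74 to 32.6%), and in 6 of 16 where they also had the core (37.5%, 18.5 to 61.4%).

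**Figure D5:**
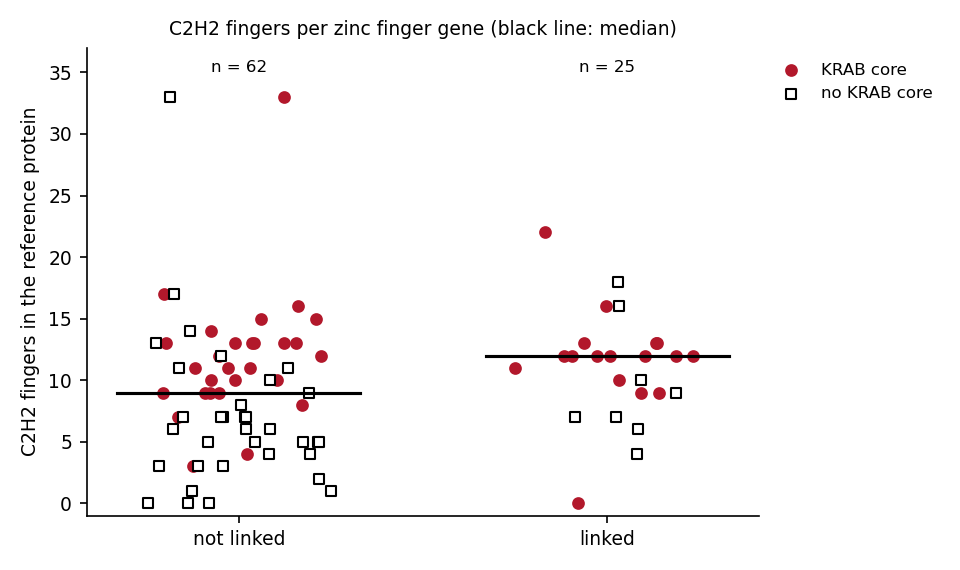
Number of C2H2 fingers in the reference protein for each coding zinc finger gene, by link, with filled circles for proteins with the KRAB core, open squares for those without, and the median as a black line. The medians were 12 fingers in linked genes and 9 in the others, and both groups ranged from 0 upward.

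The symbols in the list are older than the annotation. In addition to the 89 genes, 6 neighbors carry a Zfp symbol in GENCODE M21, all with the KRAB core. Of these, 9830147E19Rik (Zfp976), Gm5595 (Zfp975) and Gm4944 (Zfp994) were linked, at 4.36, 54.9 and 11.3 kb from their closest loci, and Gm13247 (Zfp981), Gm13251 (Zfp992) and Gm7221 (Zfp977) were not. The first pair was linked at the loci that name Zfp141, which was itself not linked.

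Not every large array of the genome was represented. Of 7 annotated arrays of 10 or more such genes, 4 with 66 genes in all had none in the list. Among them was the array of 23 genes on chromosome 13 (chr13:67038596-67827002). The annotated arrays of 13 and 24 genes on chromosome 17 held 7 and 6 genes of the list. That of 14 genes on chromosome 7 held 9. The array of 24 genes (chr17:21008903-23611019) spans both of the smaller chromosome 17 arrays described above. As a whole, 87 of the 427 annotated coding genes with the prefixes were named as neighbors (20.4%), beside 17.4% of other coding genes. Of 18 genes of the KRAB corepressor machinery, Cbx3, Chd3, Daxx, Dnmt1 and Morc3 were neighbors, Chd3 at 0.626 kb, and 0 of these 5 were linked, beside 7.22% of all neighbor symbols. Of 41 Zbtb genes, which pair zinc fingers with a BTB domain, 7 were neighbors and 0 of these were linked. Of 26 Klf and Sp genes, 7 were neighbors, and Sp4, named by 7 loci, was the only one linked. With so few neighbors in each list, a count of 0 or 1 does not set a list apart from that share.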

How the data were processed

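Noncoding RNA of 3 control and 4 Tbx5 knockout left atria was measured by the authors, who aligned reads with TopHat2 (versions 2.0.13 and 2.0.10 in the submitters' processing notes), assembled transcripts with Cufflinks, counted with featureCounts, tested with DESeq, removed coding genes and loci at coding start sites, and kept loci near coherently changed coding genes. The authors deposited the resulting list of loci, in 2 identical copies of which 1 was used, with mm10 positions and a phastCons conservation score per locus. No other value in it is a measurement. Of its rows, 1 was emptied for this work. The list holds no value per library. Its row count, emptied row included, which equals the study's number of ncRNAs that rose in the knockout, and the word up in its sheet name point to a rise, whereas the number in that name and the mark dn in the linked gene header point to a fall, so no direction was assigned.

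Neighbor symbols were matched to GENCODE M21 (GRCm38) by symbol, and 1 zinc finger gene (Zfp191, annotated as Zfp24) by RefSeq synonym. Distances run edge to edge. Fingers were counted as C-x(2,4)-C-x(12)-H-x(3,5)-H in translated coding sequences. Shares of windows of 47 bases were counted against all annotated transcripts. Members and lists were chosen with earlier results of these data known. Genes named are the linked ones, those in arrays of 3 or more, the 10 with the closest loci, those named by 3 or more loci and the Zfpm and Zfp36 families. Loci named follow the same limits. Other genes named were chosen after their values were seen. Python 3.11.15, pandas 2.3.3 and scipy 1.17.1 were used, and the functions were tested on simulated data.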

Additional observations from a re-analysis of the deposited data

How the results depend on the processing

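No result rests on a test, so each value was compared with its own 95% interval, and counts within 1.5 times. Of 32 alternatives, 31 stayed within these limits. The exception was the number of loci, which fell from 68 to 21 when only loci whose closest listed neighbor is a zinc finger gene were kept. Leaving out each array in turn gave linked shares of 25.3 to 30.5%, 1 value per group of genes and loci gave 36.7%, leaving out genes with over 10% shared windows gave 26.7%, and all neighbors with 3 or more fingers gave 26%. These 4 kinds of alternative and 5 others were chosen after seeing the data. The share of genes in arrays was 52.8% at a gap of 250 kb. The planned count of windows found once in the genome, at 47 and 32 bases, was not run, since it needs a genome sequence, and windows shared between annotated transcripts stood in for it. No paired analysis was possible because the list holds no value per library. Depth limits on the loci are unknown.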
